A study of Mus musculus with 1 sample.

Results

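Aldh1l1, Aqp4, Gja1, S100b, Slc1a2, Slc1a3, Apoe, Fabp7 and Mt3 are genes by which the formation of astrocytes in the cortex is commonly followed. They were taken by symbol from the unique molecular identifier (UMI) table of the newborn mouse cortex, where all 9 were found among 51912 gene symbols and all 9 had UMIs. The rule that takes them is their symbol alone, although they and the gates were chosen with earlier results of these data known, and no cell was gated with any of the 9 genes. The data came from wild-type C57BL/6 mice on the day of birth (P0), whose cerebral cortex (telencephalic tissue by the sample's title) gave 1 sc-RNA Seq library of 11062 cells. The tissue was digested in papain, and transcripts were counted from their 3′ ends in droplets. The number of animals behind the library is not given in the sources used here, and the SERPINA3 knock-in group that the design names was not analysed here. With 1 library no test between conditions was possible. All intervals in brackets are exact 95% intervals that cover counting error only, and the cells of 1 library are not replicates.

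Radial glia are the stem cells of the embryonic cortex. Around birth they stop making neurons, and many turn into astrocytes, which then divide locally and mature over the following weeks. Some of the 9 genes are already on in radial glia: Fabp7 encodes the brain lipid-binding protein and Slc1a3 the glutamate transporter GLAST. Others are known from mature astrocytes: Slc1a2 encodes GLT-1, the main glutamate transporter of the adult forebrain, Aqp4 the water channel of the end-feet on blood vessels, Gja1 the gap junction protein connexin 43, Aldh1l1 a folate enzyme used as a general astrocyte marker, and S100b a calcium-binding protein. Apoe encodes the lipid carrier that astrocytes secrete, and Mt3 a metal-binding metallothionein of the brain.

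Cells were assigned to classes by UMIs of other marker genes. Radial glia or astrocytes were non-dividing cells with at least 5 UMIs from at least 3 of Sox9, Hopx, Aldoc, Hes5, Ttyh1, Mfge8, Ednrb and Tnc, outnumbering their neuronal UMIs, and they numbered 289, or 2.61% of the library (2.32 to 2.93). The gate does not separate radial glia from astrocytes. Its 8 genes were all detected in the class and gave 44.4 UMIs per cell on average, against 0.315 in the 7328 excitatory neurons, while the neuron gate genes gave 2.01 excitatory and 0.329 inhibitory UMIs per cell of the class. Cells that passed the glial gate and also carried division genes such as Mki67 and Top2a were called dividing radial glia (162 cells). That name is only a label, since the gate does not separate radial glia from astrocytes among dividing cells either. Non-dividing cells with at least 2 UMIs of Olig1 and Olig2, transcription factors of the oligodendrocyte lineage, but under 2 UMIs of the precursor genes Pdgfra, Cspg4 and Sox10, formed an Olig-positive class of 106 cells. They did not have to pass the glial gate, but held 37.0 UMIs of its genes per cell. Oligodendrocyte precursors (OPCs) with those genes numbered 125 when non-dividing. Median depth was 7110 UMIs in radial glia or astrocytes, 10671.5 in dividing radial glia, 7340.5 in the Olig-positive cells, 7198 in OPCs, 8880 in excitatory neurons and 4727 in the 453 inhibitory neurons. Levels are given as UMIs per 1000000 non-mitochondrial UMIs (CPM) summed over a class. Since UMIs count 3′ ends, with no correction for how well each transcript is captured, a level is compared between classes for 1 gene, not between genes.

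The 5′ flanks of the genes were read from RefSeq (GRCm38.p6), where 8 of the 9 genes had a window. The 250 bases before the transcription start were searched on both strands for 3 motifs of factor families known in gliogenesis: the nuclear factor I (NFI) core TTGGC, the SOX motif CATTGT and the STAT motif TTCNNNGAA. The NFI core was found in 41.5% of all 32851 windows in the table and in 5 of the 10 windows of these genes, belonging to Apoe, Fabp7, S100b and Slc1a2. The SOX motif was in 10.7% of all windows and in 1 of the 10, at Apoe. The STAT motif was in 7.02% of all windows and in 1 of the 10, at Slc1a3. The windows of 4 genes are shown: Fabp7, the gene with the most UMIs, Slc1a2 and Slc1a3, the glutamate transporters, and S100b, which was nearly absent from radial glia or astrocytes. Capitals mark NFI cores (also as GCCAA on the other strand) and, at Slc1a3, the STAT motif.

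Fabp7 (chr10:57784673-57784922, plus strand): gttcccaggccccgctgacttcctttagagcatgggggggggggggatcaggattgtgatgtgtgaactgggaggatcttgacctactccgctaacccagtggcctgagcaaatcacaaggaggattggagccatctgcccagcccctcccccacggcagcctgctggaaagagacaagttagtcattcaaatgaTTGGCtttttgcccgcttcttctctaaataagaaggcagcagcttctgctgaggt

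Slc1a2 (chr2:102706188-102706437, plus strand): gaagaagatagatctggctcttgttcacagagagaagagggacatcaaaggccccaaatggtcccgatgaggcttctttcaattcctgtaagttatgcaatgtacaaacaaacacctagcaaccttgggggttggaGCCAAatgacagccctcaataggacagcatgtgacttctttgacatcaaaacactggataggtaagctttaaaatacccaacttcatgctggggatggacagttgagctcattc

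Slc1a3 (chr15:8710808-8711057, minus strand): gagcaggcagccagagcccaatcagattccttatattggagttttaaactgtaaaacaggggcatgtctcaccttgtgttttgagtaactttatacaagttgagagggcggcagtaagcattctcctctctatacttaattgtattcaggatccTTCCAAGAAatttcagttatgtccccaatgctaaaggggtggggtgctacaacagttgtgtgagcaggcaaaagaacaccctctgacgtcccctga

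S100b (chr10:76253586-76253835, plus strand): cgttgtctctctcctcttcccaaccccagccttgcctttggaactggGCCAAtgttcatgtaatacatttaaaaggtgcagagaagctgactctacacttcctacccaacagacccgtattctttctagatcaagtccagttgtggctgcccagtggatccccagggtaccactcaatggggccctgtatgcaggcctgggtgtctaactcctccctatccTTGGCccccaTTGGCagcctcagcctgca

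These letters are descriptions of the reference sequence and were not compared with binding data. The S100b window held 3 NFI cores, more than any other of the 10 windows, although S100b was the gene with the fewest UMIs in glia.

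In radial glia or astrocytes, 8 of the 9 genes were far above their level in neurons, and S100b was not. Genes at least 4-fold higher in radial glia or astrocytes than in excitatory neurons made up 8.71% of the 15553 genes tested (at least 50 UMIs in both classes together), and 8 of these 9 were among them. Aldh1l1, Aqp4 and Gja1 reached that minimum only through radial glia or astrocytes. The gates require UMIs of glial genes in radial glia or astrocytes and limit them in neurons. Genes that go with the gate genes were therefore bound to differ, and the count is not independent of the gates. The class made up 2.61% of the cells and held 53.1% of all Fabp7 UMIs, 56.2% of Mt3, 54.6% of Aldh1l1, 50.7% of Apoe and of Aqp4, 42.9% of Slc1a3 and 32.3% of Slc1a2. For Gja1 the share was 24.1%, below the 37.6% in vascular, immune, choroid or ependymal cells, and for S100b 0.758%.

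Among the glutamate transporters, Slc1a3 reached 1951 CPM (1892 to 2011) in radial glia or astrocytes and 19.7 CPM (18.6 to 20.7) in excitatory neurons, a ratio of 99.3 (93.4 to 105.5). Slc1a2 reached 560.3 CPM (529 to 593) against 15.6 CPM (14.7 to 16.5), a ratio of 36.0 (33.2 to 39.1). Both transporters were thus present at birth, and Slc1a2 had the lowest ratio to neurons of the 8 genes. For a comparison at equal depth, every cell was thinned to 2000 randomly drawn UMIs, which kept 260 of the 289 radial glia or astrocytes and 6912 of the excitatory neurons. In thinned cells a UMI of Slc1a3 was found in 94.6% of radial glia or astrocytes (91.1 to 97.0) and in 3.63% of excitatory neurons. For Slc1a2 the shares were 61.5% (55.3 to 67.5) and 2.49%, and before thinning they were 85.1% and 9.53%.

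Aldh1l1, Aqp4 and Gja1 had fewer UMIs and were low in neurons. Aldh1l1 reached 274 CPM (252 to 297) in radial glia or astrocytes and 0.493 CPM (0.343 to 0.685) in excitatory neurons, a ratio of 555 (395 to 805). Aqp4 reached 72.2 CPM (61.3 to 84.6) against 0.169 CPM, a ratio of 428 (238 to 845), and Gja1 41.5 CPM (33.3 to 51.0) against 0.197 CPM, a ratio of 210.4 (119 to 400.5). In inhibitory neurons Aldh1l1 and Aqp4 had 0 UMIs among 453 cells, which for each allows up to 3 UMIs, or 1.28 CPM, and Gja1 had 1 UMI. In thinned cells Aldh1l1 was detected in 37.7% of radial glia or astrocytes (31.8 to 43.9), Aqp4 in 13.5% (9.56 to 18.2) and Gja1 in 6.92% (4.15 to 10.7). The corresponding shares of excitatory neurons were 0.101%, 0.0289% and 0.0289%. Without thinning, the share of radial glia or astrocytes was 65.7% for Aldh1l1, 31.5% for Aqp4 and 22.8% for Gja1, so how many cells appear to hold these genes depended on depth.

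The lipid-handling and metal-binding genes were detected in nearly every radial glia or astrocyte. Fabp7 reached 15926 CPM (15757 to 16095) in the class and 31.8 CPM in excitatory neurons, a ratio of 501 (480.0 to 523). As a mean of CPM per cell this ratio was 295.7, and with gates applied to thinned cells 296. Apoe reached 3604 CPM (3524 to 3685) against 14.0 CPM, a ratio of 257 (240.5 to 275), and Mt3 3127 CPM (3052 to 3202) against 10.7 CPM, a ratio of 293 (271 to 316). Thinned cells with a UMI made up 95.4% for Fabp7, 93.1% for Apoe and 92.7% for Mt3. Amounts per cell had a wide range. Fabp7 ranged from 0 to 109 UMIs per thinned cell with a median of 28 (quartiles 12 and 45), Apoe from 0 to 36 with a median of 6, and Mt3 from 0 to 18 with a median of 6.

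S100b had 1 UMI in 1 of the 289 radial glia or astrocytes, or 0.466 CPM (0.0118 to 2.60). In thinned cells it was found in 0 of 260, and 3 cells, the limit used for a count of 0, would be 1.15%. Excitatory neurons held 1.28 CPM (1.03 to 1.57), as single UMIs in 91 of 7328 cells, and the ratio of radial glia or astrocytes to excitatory neurons was 0.364 (0.00911 to 2.08), an interval that includes 1. The level in OPCs was higher than in either. The 125 OPCs had 19 UMIs in 14 cells, or 21.8 CPM (13.1 to 34.1), which was 46.8-fold the level of radial glia or astrocytes (7.44 to 1945), a ratio that rests on 1 UMI in the latter and, taken as radial glia or astrocytes over OPCs, moved from 0.0214 to 0.00647 with the mean of CPM per cell. The OPC level was 17.0-fold that of excitatory neurons (9.80 to 28.1). With 20 UMIs in radial glia or astrocytes and OPCs together, S100b was below the 50 UMIs needed to be counted in that comparison.

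**Figure D1:**
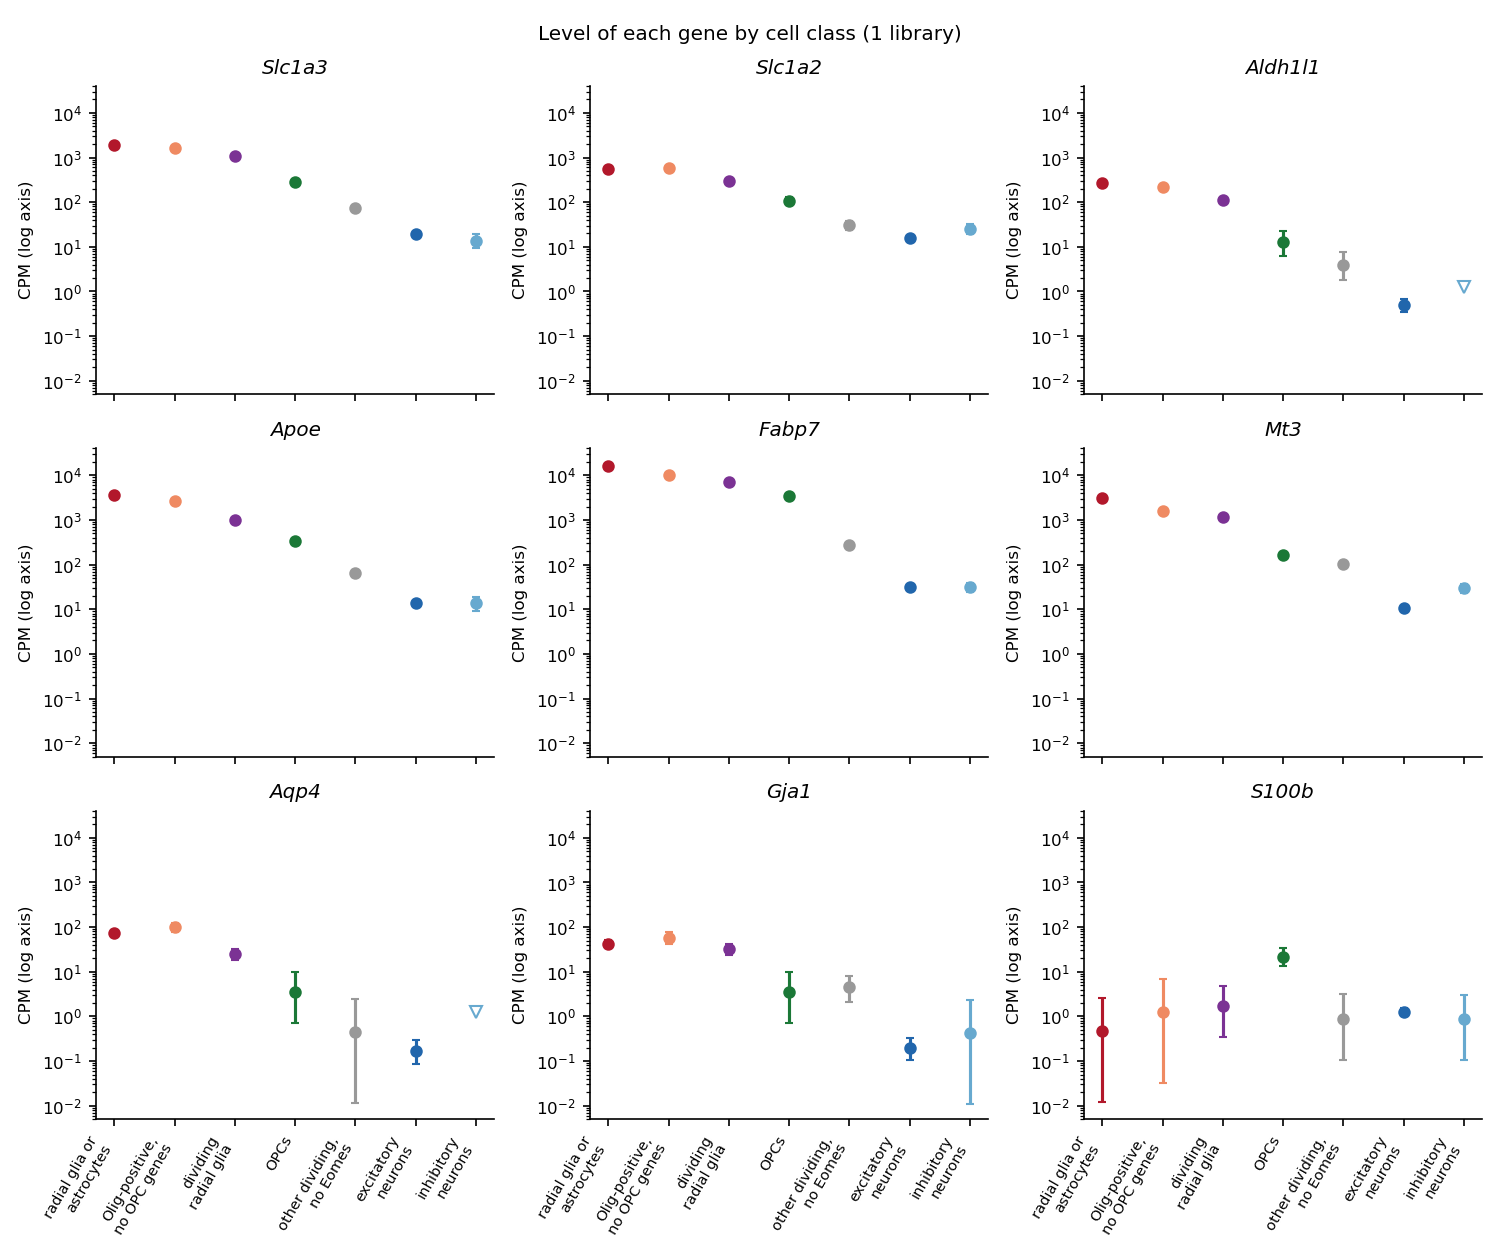
Level of each of the 9 genes in CPM (log axis) in 7 classes of cells. Points are class sums of 1 library, bars are exact 95% Poisson intervals for counting error only, and an open triangle marks the level that 3 UMIs would give where a class had 0. For 8 genes the points step down from glia to neurons, as for Aldh1l1 from 274 CPM in radial glia or astrocytes to 0.493 CPM in excitatory neurons, whereas the S100b point is highest in OPCs at 21.8 CPM.

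Dividing radial glia carried the same 8 genes, at levels within 4-fold of those in radial glia or astrocytes. Genes at least 4-fold higher in radial glia or astrocytes than in dividing radial glia made up 0.731% of 8886 genes tested, and 0 of the 8 with enough UMIs were among them. At 2-fold the share was 6.39% of genes, with 5 of the 8 past it. Apoe differed most, at 3604 CPM in non-dividing against 994 CPM in dividing cells (ratio 3.63, 3.44 to 3.82). Aqp4 followed at 72.2 against 24.7 CPM (2.92, 2.08 to 4.18), Mt3 at 3127 against 1197 CPM (2.61, 2.49 to 2.74), Aldh1l1 at 274 against 113 CPM (2.41, 2.05 to 2.84) and Fabp7 at 15926 against 7132 CPM (2.23, 2.19 to 2.28). The transporters differed less, Slc1a2 with a ratio of 1.91 (1.72 to 2.12) and Slc1a3 with 1.84 (1.74 to 1.94). For Gja1, the connexin, the ratio of 1.30 had an interval that includes 1 (0.919 to 1.84). Gate genes not among the 9 spanned a wide range in the same comparison, and those named here were chosen after their values were seen, from Hopx at 5.56 and Aldoc at 4.24 to Ednrb at 1.07 and Hes5, a Notch target, at 1.007.

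Part of this gap moved with the Olig genes, since 104 of the 162 dividing radial glia had at least 2 UMIs of Olig1 and Olig2, whereas non-dividing cells with that many formed a class of their own. This split was added after the values were seen. In the 58 dividing cells without Olig, the ratio of radial glia or astrocytes was 2.21 for Apoe (2.06 to 2.36), 1.59 for Mt3 (1.49 to 1.69), 1.59 for Fabp7 (1.54 to 1.63), 1.67 for Aldh1l1 (1.34 to 2.09) and 2.64 for Aqp4 (1.58 to 4.74). Only Aqp4 and Apoe were then at least 2-fold higher, beside 4.32% of all genes tested. Over the 104 dividing cells with Olig, 7 genes were at least 2-fold higher, beside 9.51% of all genes, led by Apoe at 5.30 (4.93 to 5.70) and Mt3 at 3.83 (3.58 to 4.10), and Gja1 was not among them. A gap was also present where both sides had Olig. The non-dividing Olig-positive cells exceeded the same 104 cells at least 2-fold for 5 of 8 genes, beside 3.06% of all genes. These were Aqp4 (4.27, 2.75 to 6.83), Apoe (3.85, 3.55 to 4.18), Aldh1l1 (2.48, 1.94 to 3.19), Slc1a2 (2.19, 1.89 to 2.54) and Gja1 (2.02, 1.27 to 3.25). Apoe stood at 1633 CPM in dividing cells without Olig and at 680.4 CPM in those with Olig, and Mt3 at 1972 and 817 CPM. Slc1a3, at 1251 and 967 CPM, varied least among the genes whose interval for this difference excludes 1. In thinned cells Aldh1l1 was detected in 29.3% of dividing cells without Olig (18.1 to 42.7) and in 12.5% of those with Olig (6.83 to 20.4), against 37.7% of radial glia or astrocytes.

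Dividing cells that did not pass the glial gate held little of the 9 genes. In the 193 such cells without Eomes, the transcription factor of intermediate progenitors, Fabp7 stood at 278 CPM and Aldh1l1 at 4.01 CPM, and Aqp4 had 1 UMI. Dividing radial glia exceeded them at least 4-fold for 7 of 7 genes with enough UMIs (3.26% of all genes), from 7.18-fold for Gja1 (3.64 to 15.8) to 28.3-fold for Aldh1l1 (14.6 to 62.8). The glial gate itself separates these classes, and its genes gave 35.4 UMIs per cell in dividing radial glia against 3.24 in the others. Genes that go with the gate genes were therefore bound to differ, and the count is not independent of the gate. Aldh1l1 (202 against 9 UMIs) and Gja1 (57 against 10) had enough UMIs only through dividing radial glia. When all 385 dividing cells outside the OPCs were pooled, 7 of 8 genes tested were at least 4-fold higher in radial glia or astrocytes, beside 2.45% of genes, with Gja1 at 2.66 (1.92 to 3.70). Of the 7, Aqp4 (45 UMIs in the pool) had enough UMIs only through radial glia or astrocytes. The pool includes the cells that failed the glial gate, so this count is not independent of the gate either. Slc1a2 at 4.07 and Slc1a3 at 4.10 lay just above the threshold, with intervals that reach below it (3.69 and 3.88).

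In the 106 Olig-positive cells without OPC genes, most genes tested had levels within 2-fold of those in radial glia or astrocytes, these 8 among them. Genes at least 2-fold higher in radial glia or astrocytes made up 4.5% of 7836 genes tested and genes at least 2-fold lower 1.15%, and 0 of the 8 tested were in either group, S100b having too few UMIs. Since both shares are small, this count does not set the 8 genes apart from other genes. Slc1a2, at 571 CPM in the Olig-positive cells, had a ratio of 0.982 (0.881 to 1.10), and Slc1a3 had 1.18 (1.11 to 1.26). Aqp4 stood at 100.1 CPM (79.4 to 125) in the Olig-positive cells against 72.2 CPM (ratio 0.722, 0.548 to 0.957), but 16 of its 80 UMIs there lay in 1 cell, and thinned cells with a UMI made up 15.5% (8.92 to 24.2) and 13.5% (9.56 to 18.2). Gja1 had a ratio of 0.721 whose interval includes 1 (0.499 to 1.05). Fabp7 (ratio 1.60, 1.56 to 1.63) and Mt3 (1.97, 1.85 to 2.09) were higher in radial glia or astrocytes. Apoe (1.37, 1.31 to 1.44) and Aldh1l1 (1.24, 1.05 to 1.48) were also higher in radial glia or astrocytes, by less.

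OPCs had lower levels of all 8 genes that were tested. Genes at least 4-fold higher in radial glia or astrocytes than in OPCs made up 5.23% of 8023 genes tested, and 8 of 8 were among them, while 0 were among the 1.62% at least 4-fold lower. Of the 8, Aldh1l1, Aqp4 and Gja1 had enough UMIs only through radial glia or astrocytes. The count of 8 of 8 was thus partly set by the minimum of UMIs. The ratio was smallest for Fabp7, at 4.59 (4.42 to 4.76), with 3470 CPM in OPCs, and 94.8% of thinned OPCs had a Fabp7 UMI against 6.38% of excitatory neurons. Slc1a2 (105.6 CPM in OPCs, ratio 5.30, 4.29 to 6.63) and Slc1a3 (288 CPM, ratio 6.77, 5.96 to 7.72) were also present in OPCs. Apoe had a ratio of 10.8 (9.59 to 12.2). That of Mt3 was 18.8 (15.9 to 22.3), and 74.2 with gates applied to thinned cells. Aldh1l1 had 11 UMIs in 4 of 125 OPCs (ratio 21.7, 12.0 to 43.6, and 60.7 in thinned cells), and Aqp4 and Gja1 had 3 UMIs each. The ratios of Aqp4 and Gja1, 21.0 (7.04 to 103) and 12.0 (3.99 to 59.5), like that of Aldh1l1, are therefore loosely bounded.

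**Figure D2:**
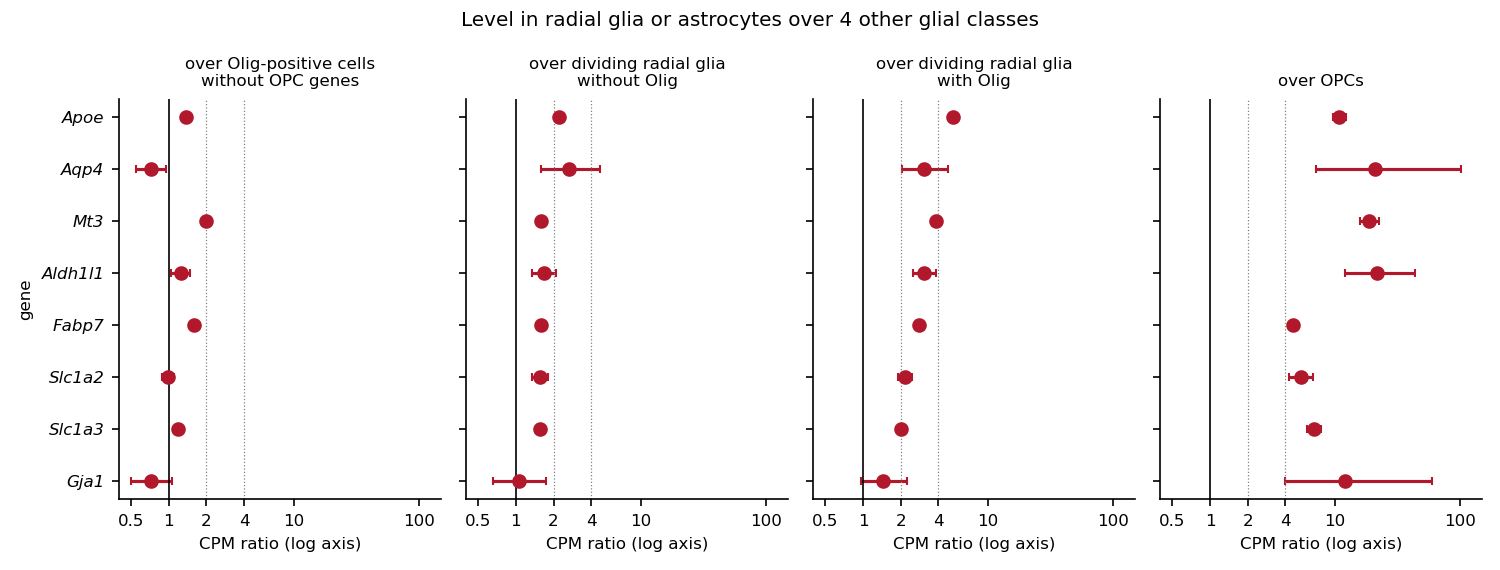
Ratio of the CPM in radial glia or astrocytes to that in 4 other glial classes for the 8 genes with enough UMIs (log axis). Points are ratios within 1 library, bars are exact 95% counting intervals, the solid line marks 1 and dotted lines mark 2 and 4. Ratios run from 0.721 to 1.97 over Olig-positive cells, up to 2.64 over dividing radial glia without Olig, up to 5.30 over those with Olig, and from 4.59 upward over OPCs.

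In excitatory neurons the genes other than S100b were far below their level in radial glia or astrocytes, least so Slc1a2 and Slc1a3. S100b had 68.9% of its 132 UMIs in excitatory neurons, which made up 66.2% of the cells and held 73618341 of all 90346034 UMIs. Its level there was 274.9% of the 1-UMI level in radial glia or astrocytes, a ratio whose interval includes 1. For the other 8 genes, the level in excitatory neurons as a percentage of that in radial glia or astrocytes was 0.180 for Aldh1l1, 0.1996 for Fabp7, 0.234 for Aqp4, 0.342 for Mt3, 0.389 for Apoe, 0.475 for Gja1, 1.007 for Slc1a3 and 2.78 for Slc1a2. The ratios to neurons differed between genes, with intervals for Slc1a2 (33.2 to 39.1), Slc1a3 (93.4 to 105.5) and Aldh1l1 (395 to 805) that did not overlap. The part of free RNA in these levels was not tested. Among the 5540 excitatory neurons without any UMI of the glial gate genes, Slc1a2 was at 14.1 CPM, Slc1a3 at 20.5 CPM, Fabp7 at 30.9 CPM, Apoe at 13.2 CPM and Aldh1l1 at 0.427 CPM, so this filter moved these genes little. Gate genes averaged only 0.315 UMIs per excitatory neuron, so the filter cannot show how much of these levels was free RNA.

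The transporters had opposite layer patterns. Slc1a2 reached 26.7 CPM (24.6 to 29.0) in 1689 deep-layer neurons and 7.17 CPM (6.26 to 8.18) in 3188 upper-layer neurons, gated by Bcl11b, Tle4, Fezf2 and Foxp2 against Cux1 and Cux2, a ratio of 3.73 (3.19 to 4.37). Slc1a3 went the other way, at 10.8 CPM (9.47 to 12.3) and 19.3 CPM (17.8 to 20.9), a ratio of 0.561 (0.480 to 0.654). Of 14430 genes tested, 6.95% were at least 2-fold higher in deep layers, 1 of the 6 of these genes with enough UMIs, Slc1a2, among them, and 3.96% at least 2-fold lower, 0 of the 6 among them. Fabp7 was also lower in deep layers, with a ratio of 0.579 (0.517 to 0.649). In thinned cells, a Slc1a2 UMI was found in 4.68% of deep-layer and 1.14% of upper-layer neurons. The 149 newborn neurons with Eomes held more of some of these genes than the layer neurons, with Fabp7 at 149.6 CPM, Apoe at 167 CPM, Slc1a3 at 65.0 CPM and Slc1a2 at 55.9 CPM.

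A class of 70 vascular, immune, choroid or ependymal cells was divided by its leading markers after its values were seen, and held some of the genes at higher level than radial glia or astrocytes. Gja1, which endothelial cells also use for gap junctions, reached 261 CPM (218 to 310.0) in 22 endothelial-led cells, and Apoe, which macrophages also make, reached 7891 CPM (7371 to 8439) in 23 immune-led cells. Aldh1l1, Aqp4 and Slc1a2 had 0 UMIs in both. The 24 mural-led cells held Fabp7 at 9186 CPM and Mt3 at 1607 CPM, but a few cells carried these levels: 1 cell held 477 of the 1789 Fabp7 UMIs, 13 of the 24 cells had a Fabp7 UMI and 7 had at least 2. Other glial genes were present in a few mural-led cells too: Slc1a3 (652 CPM, 7 cells), Aldh1l1 (169 CPM, 7 cells), Slc1a2 (169 CPM, 6 cells) and Aqp4 (15.4 CPM, 2 cells). Whether these cells held mixed glial content was not tested. The 1 choroid- or ependymal-led cell held 59 Mt3 UMIs.

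**Figure D3:**
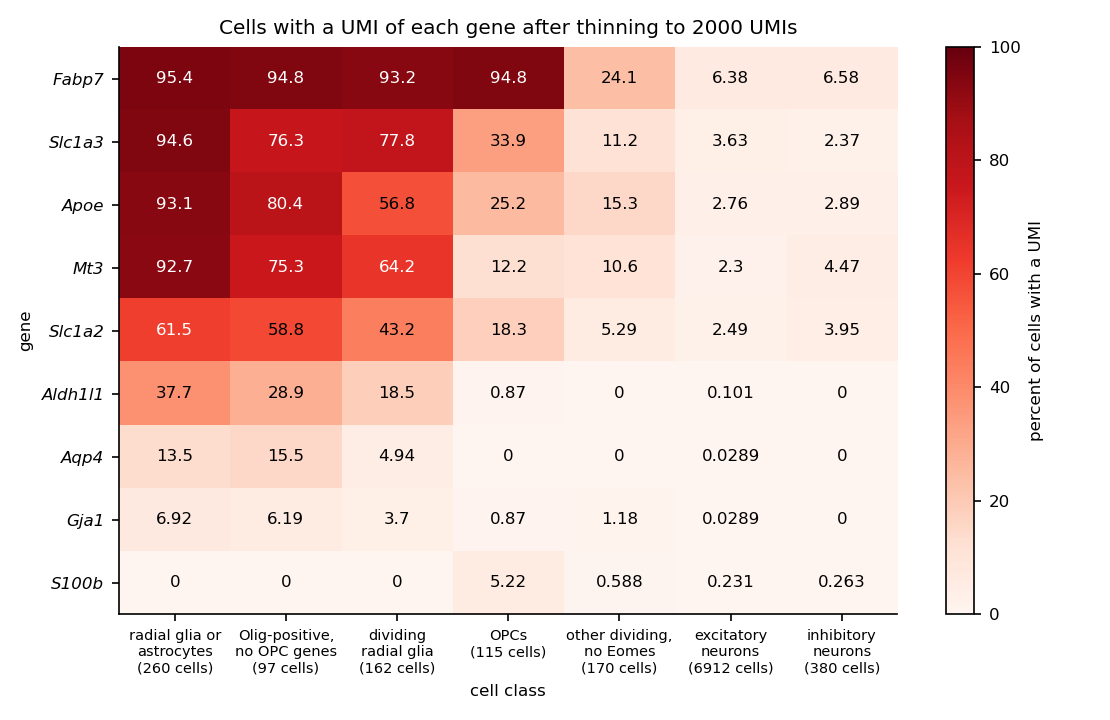
Percent of cells with at least 1 UMI of each gene after every cell was thinned to 2000 UMIs, by class, in 1 library. Genes are ordered by their share in radial glia or astrocytes, from 95.4% for Fabp7 to 0 for S100b. Fabp7 stays at 94.8% in OPCs, where Mt3 is at 12.2%.

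In thinned radial glia or astrocytes the median number of the 9 genes found in a cell was 5 (quartiles 4 and 6, range 0 to 8), and 182 of 260 cells, or 70%, held at least 5. Slc1a3, Apoe, Fabp7 and Mt3 were found together in 221 of the 260 cells, or 85.0% (80.1 to 89.1). Aldh1l1, Aqp4, Gja1 and Slc1a2 averaged 0.531, 0.15, 0.0769 and 1.21 UMIs per thinned cell, so a cell without a UMI is not shown to lack the gene. At least 2 of these were found in 94 cells (36.2%, 30.3 to 42.3), all 4 in 1 cell and none in 63 cells (24.2%, 19.2 to 29.9). The most common combination, in 59 cells, was the set of Slc1a3, Apoe, Fabp7 and Mt3 with Slc1a2. The same with Aldh1l1 added was found in 49 cells, and the set alone in 41 cells (15.8%, 11.6 to 20.8).

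Dividing radial glia and OPCs held fewer of the genes in a cell. The median was 4 in dividing radial glia, where 32.1% of cells had at least 5 and 42.0% (34.3 to 49.97) held Slc1a3, Apoe, Fabp7 and Mt3 together. It was 5 in the Olig-positive cells, where these shares were 53.6% and 60.8% (50.4 to 70.6), and 31 of 97 cells held at least 2 of Aldh1l1, Aqp4, Gja1 and Slc1a2 (32.0%, 22.9 to 42.2). The median was 2 in OPCs, where 0 of 115 cells held 2 of these 4 genes (3 cells would be 2.61%) and 4.35% held Slc1a3, Apoe, Fabp7 and Mt3 together, and 0 in excitatory neurons, where 83.9% had none of the 9 and 2 of 6912 cells had at least 5. The ranges of radial glia or astrocytes, Olig-positive cells and dividing radial glia overlapped.

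**Figure D4:**
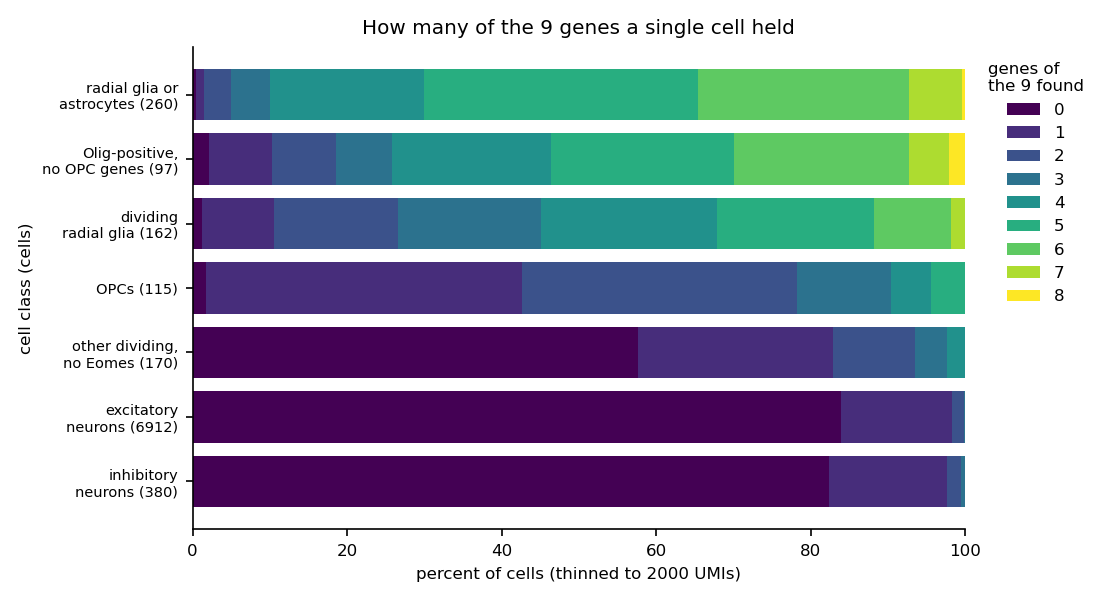
Distribution of the number of the 9 genes found in a single cell after thinning to 2000 UMIs, as a percent of the cells of each class in 1 library. At least 5 genes were found in 70% of radial glia or astrocytes, 53.6% of Olig-positive cells, 32.1% of dividing radial glia and 4.35% of OPCs, and 83.9% of excitatory neurons had none.

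Within radial glia or astrocytes, detection of some of the genes went together. All 98 cells with Aldh1l1 also held Apoe, Fabp7 and Mt3, which were in 88.9%, 92.6% and 88.3% of cells without Aldh1l1. Aqp4 and Aldh1l1 were found together in 5.77% of thinned cells, in 2.12% at 1000 UMIs and in 24.9% without thinning. Aldh1l1 was in 42.9% of cells with Aqp4 (26.3 to 60.7) and in 36.9% of those without it (30.6 to 43.6), intervals that overlap. Slc1a2 was in 80.0% of cells with Aqp4 (63.1 to 91.6) and in 58.7% of cells without it (51.9 to 65.2), whose intervals also overlap slightly. In UMIs, cells with Slc1a2 held 2.42-fold the Aqp4 of cells without it (1.09 to 6.10), and cells with Gja1 held 1.63-fold the Slc1a2 (1.10 to 2.33). Split the other way, cells with Slc1a2 held 2.5-fold the Gja1, with an interval that includes 1 (0.806 to 10.3). Intervals also included 1 for Gja1 in cells with Aqp4 (2.14, 0.609 to 6.20) and for Aldh1l1 in cells with Slc1a2 (1.10, 0.769 to 1.59). Over the 260 cells, which share a library and a thinned depth, Spearman's rho was 0.59 between Fabp7 and Mt3, 0.52 between Fabp7 and Apoe, 0.39 between Fabp7 and Aldh1l1, 0.33 between Slc1a2 and Slc1a3, and 0.02 between Aldh1l1 and Aqp4. The coefficients of genes with few UMIs are limited by their many zeros.

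Cells with a UMI of a sparse gene were then compared with cells without it. The 98 cells with Aldh1l1 held 40.9 Fabp7 UMIs per thinned cell against 23.7 in the other 162 (ratio 1.72, 1.65 to 1.80), and 7.91 Mt3 UMIs against 5.31 (1.49, 1.35 to 1.64). By intervals above 1 they also held more of 5 of the 18 radial glia genes listed below, among them Ptprz1 (1.26) and Dbi (1.30). For the 30 other astrocyte genes this count was 3, and Pax6 of the radial glia list was lower (0.721, 0.530 to 0.971). A rise with Aldh1l1 was thus also found in genes outside the 9. The share of all genes with such an interval was not computed, and a gene with few UMIs can hardly reach one. The counts of intervals in this paragraph therefore do not set the lists apart from each other or from other genes. The 35 cells with Aqp4 held 12.9 Apoe UMIs against 6.82 (1.90, 1.71 to 2.11), with Fabp7 nearer to even (1.20, 1.13 to 1.27). Intervals above 1 were also those of 6 of the 30 other astrocyte genes and 3 of the 18 radial glia genes, and Notch2 was below 1. For the 23 cells with Gfap, the filament gene of astrocytes, only Apoe among the 9 had an interval above 1 (1.36, 1.18 to 1.56). This was beside 3 of 29 other astrocyte genes and 2 of 18 radial glia genes above 1, with 2 astrocyte genes below it. Gfap was chosen after values were seen. Median depths before thinning were alike, 7593 against 7228.5 UMIs for Aldh1l1 and 6804 against 7591 for Aqp4. Mitochondrial genes took 2.04% of UMIs in cells with Aldh1l1 and 2.53% in cells without it.

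The setting was given by other lists, 30 further astrocyte genes and 18 radial glia genes. Of the astrocyte list, 22 had enough UMIs and 22 were at least 4-fold higher in radial glia or astrocytes than in excitatory neurons, beside 8.71% of all genes, with a median log2 ratio of 5.98 beside -0.02 for all genes tested. A gene could have enough UMIs through radial glia or astrocytes alone, as Gfap did with 111 UMIs there. Gjb6, Agt, Ntsr2 and Lcat, which were low in that class, were not among the genes tested. The count of 22 of 22 was thus partly set by the minimum of UMIs. Neither this count nor that of the radial glia list below is independent of the gates. Genes with many UMIs in the class, not corrected for capture, were Cst3, a protease inhibitor (8159 CPM), Sparcl1 (883 CPM), Glul, the glutamine synthetase (678 CPM), and Sparc (622 CPM). Ratios were large for S1pr1 (838) and Mlc1 (673) and smallest, among those tested, for Atp1b2 (7.004), Slc6a11 (8.28) and Sparcl1 (11.5). Gjb6, a connexin of mature astrocytes, and Agt had 0 UMIs in the 289 cells, which allows up to 1.40 CPM. Among genes named after their values were seen, Ntsr2 had 3 UMIs, Lcat 4, Slc39a12 9 and Gpr37l1 15, and Gfap was found in 25.3% of the cells at 51.7 CPM.

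Of the radial glia list, 15 of 18 genes were at least 4-fold higher than in excitatory neurons, beside 8.71% of all genes, with a median log2 ratio of 5.52. The genes of this list with the most UMIs in the class were Dbi (8306 CPM), Ptn (7913 CPM), Ptprz1 (5204 CPM), Vim (1729.7 CPM) and Pea15a (1278 CPM). That order is not corrected for how well each transcript is captured. Ratios were largest for Vim, an intermediate filament (223), Notch2 (153) and Sox2 (118) and smallest for Dkk3 (3.17), Ptn (3.30) and Cdh4 (3.51).

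The lists were compared between non-dividing and dividing glia without the Olig split. Over dividing radial glia, 3 of 23 astrocyte genes tested were at least 4-fold higher, Gfap at 7.67 (4.22 to 15.3), Clu, a secreted chaperone, at 6.74 (5.45 to 8.41) and Slc7a10 at 4.01 (2.13 to 8.20), and 0 of 18 radial glia genes, beside 0.731% of all genes. Of the 3, Gfap had enough UMIs only through the non-dividing class, and the interval of Slc7a10 reaches below 4. At 2-fold the counts were 10 and 5, beside 6.39% of all genes, and the median log2 ratios were 0.91 and 0.73, beside 0.04 for all genes. The intermediate filament Nes (0.954, 0.844 to 1.08) and the stem cell factor Sox2 (1.05, 0.960 to 1.15) were at like level in both, while Chrdl1, the astrocyte gene at least 2-fold lower in non-dividing cells, stood at 10.7 CPM against 28.1 CPM. Over OPCs, 16 of 22 astrocyte genes and 6 of 18 radial glia genes were at least 4-fold higher, beside 5.23% of all genes.

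**Figure D5:**
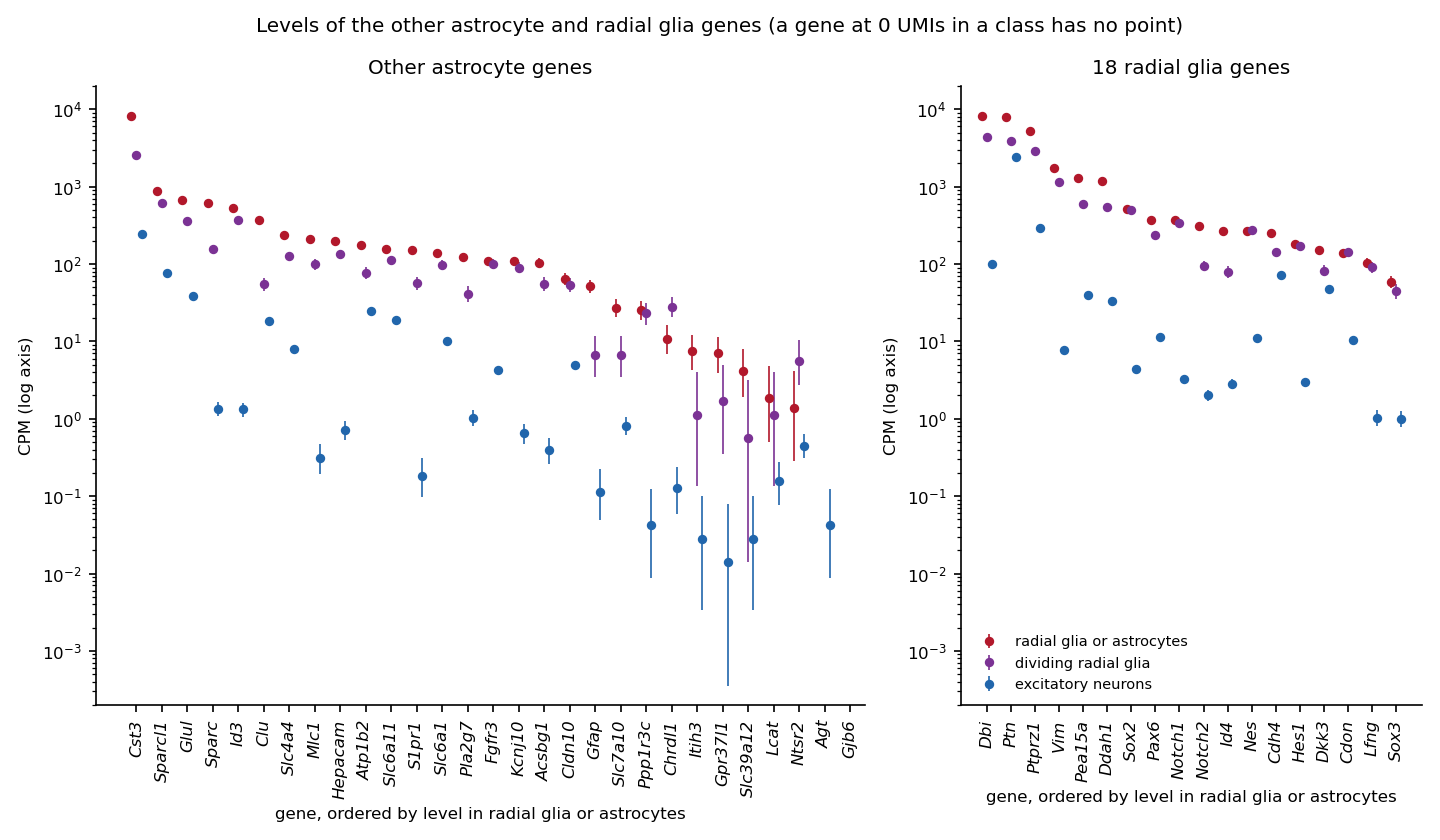
Levels in CPM (log axis) of other astrocyte genes and 18 radial glia genes in radial glia or astrocytes, dividing radial glia and excitatory neurons, ordered by the level in the first. Points are class sums of 1 library with exact 95% Poisson intervals, and a gene at 0 UMIs in a class has no point. Astrocyte genes run from Cst3 at 8159 CPM down to Gjb6 and Agt at 0 UMIs, and radial glia genes such as Dbi (8306 CPM) and Vim (1729.7 CPM) are present. The order of genes is not corrected for capture of each transcript.

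Across 10 gated classes of this library, the genes whose log2(CPM + 1) was most like that of each of the 9 were found among 16372 genes with the gate genes left out. Slc1a2 was most like Glo1, which encodes the enzyme that clears methylglyoxal (Pearson's r = 0.990), and Mvk (0.990), Slc1a3 like Fbxo2 (0.990) and Tmem256 (0.987), and Aldh1l1 like Glul (0.985) and Bcar3 (0.982). Fabp7 was most like Plce1 (0.991) and Plpp3 (0.990), Apoe like Rcn3 (0.988) and Hadh (0.985), and Mt3 like Emp2 (0.987) and Ccdc80 (0.984). Aqp4 was most like Rhcg (0.983) and Ranbp3l (0.972), Gja1 like Wwtr1 (0.984) and Rhoa (0.968), and S100b like Stk32a (0.951) and Plpp4 (0.941). Among the 9 genes themselves, r was highest between Slc1a3 and Fabp7 (0.974) and between Aldh1l1 and Mt3 (0.972), and with S100b it lay between -0.23 and 0.20. These coefficients describe 10 points that share a library and differ in depth and number of cells.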

How the data were processed

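The authors deposited raw UMI counts per gene symbol and cell barcode, with a table of the total count and detected genes of each cell. All 11062 cell totals matched. Per the study's methods, a 10x 3′ kit was used and a company ran Cell Ranger on the reads. The submitters' processing notes name mm9, STAR, Cell Ranger 2 and Seurat. The annotation is not given in the sources used here, so no coordinates of the files were used. The library held 90346034 UMIs, with a median of 7196.5 per cell (lowest 500).

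Cells with under 200 genes were left out (4 cells). Classes were gated with 60 marker genes, none of them among the 9. Excitatory and inhibitory neurons needed at least 3 UMIs of their list and more than 3 times those of the other. Cells with vascular, immune, choroid or ependymal genes were gated first, then OPCs, Olig-positive cells that were not dividing, dividing cells (3 UMIs from 2 genes) and radial glia or astrocytes. Dividing cells with Olig but without OPC genes therefore stayed among the dividing cells. No doublet caller was run. Instead, 30 cells with mixed markers were set aside, and leaving out cells above the 95th percentile of UMIs was an alternative. A further 2242 cells passed no gate (median 1061 UMIs, 13.5% mitochondrial).

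UMIs were summed per class and divided by the non-mitochondrial total (CPM). Genes with at least 50 UMIs in both classes together were compared with a fold of 4, which is a size rule and no statistical test. A gene could reach this minimum through the class where it was high, so counts of genes past the fold are partly set by it. Levels have exact Poisson, shares exact binomial (Clopper-Pearson) and ratios conditional exact intervals at 95%. A count of 0 allows 3 counts. Intervals cover counting error only. Thinning drew 2000 UMIs per cell (seed 1). Ratios were tested on simulated data. Python 3.11 with numpy and scipy was used.

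The text names all 9 genes. From each other list it names the 5 highest genes, the 3 largest and 3 smallest ratios to neurons and genes at 0 UMIs, and for each of the 9 the 2 most alike genes. A gene of the astrocyte list is not reported here by name. Further names were added after values were seen. The 9 genes, the lists and the gates were chosen with earlier results of these data known, and so support nothing independently.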

Additional observations from a re-analysis of the deposited data

Results flagged for a closer look

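The 2242 cells that passed no gate, which no comparison used, held 1148 UMIs of the 9 genes, or 1.07% of all 106944. This was flagged as a signal in cells outside the comparisons, above the limit of 3 that a count of 0 allows. These cells had a median of 1061 UMIs, and mitochondrial genes took 13.5% of their UMIs. Fabp7 gave 495 of the 1148 (136.8 CPM, against 31.8 CPM in excitatory neurons and 15926 CPM in radial glia or astrocytes), Apoe 254 (70.2 CPM) and Mt3 148 (40.9 CPM). Fabp7 UMIs lay in 252 cells, or 11.2%.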

How the results depend on the processing

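Under 18 other settings, 4 of them chosen after seeing the data, 507 values of 38 level ratios were computed. None reversed a direction whose interval excluded 1, 390 lay within the main interval and 117 outside it. Of 78 pair shares, 12 lay outside, 11 of them with cells not thinned or thinned to 1000 UMIs and 1 with gates applied to thinned cells. The share with both Aldh1l1 and Aqp4 ranged from 2.12% to 24.9%, with both Aldh1l1 and Slc1a2 from 9.54% to 60.6%, with both Aqp4 and Slc1a2 from 3.18% to 30.1% and with both Slc1a2 and Slc1a3 from 37.1% to 83.4%. The median number of the 9 genes per cell moved from 5 to 6 without thinning and to 4 at 1000 UMIs. The counts at least 4-fold above excitatory neurons and OPCs stayed between 6 and 8. The count above all dividing cells moved from 7 to 4 in thinned cells, where Slc1a2 (3.90) and Slc1a3 (3.95) were under 4-fold and Aqp4, with 39 and 9 UMIs left, was below the minimum of 50. The count above dividing radial glia moved from 0 to 1 (Apoe) with a dividing gate of 6 UMIs and with cells of at most 1 neuronal UMI, and to 5 at 2-fold. With gates applied to thinned cells, which left 57 dividing radial glia, the Apoe ratio over them was 2.65 and that of Gja1 0.775 (0.310 to 2.31), below 1 where its main value of 1.30 was above. Other ratios also moved by over 1.5 times in some setting. Over excitatory neurons, Fabp7 ranged from 295.7 to 560.2, Aqp4 from 275 to 511 and Gja1 from 198 to 334. Over OPCs, Mt3 ranged from 18.8 to 74.2, Aldh1l1 from 20.5 to 60.7, Aqp4 from 20.7 to 43.3 and Gja1 from 7.06 to 31.2. Over all dividing cells, Aqp4 ranged from 5.88 to 13.4, Slc1a2 from 3.49 to 6.13 and Slc1a3 from 3.55 to 6.70. Over dividing radial glia, Apoe ranged from 2.21 to 4.18, Mt3 from 1.59 to 3.03 and Gja1 from 0.775 to 2.08. S100b, with 1 UMI in radial glia or astrocytes, ranged from 0.00647 to 0.0238 of its level in OPCs (0.0214 as reported), from 0.102 to 0.378 of that in excitatory neurons, from 0.158 to 0.737 of that in all dividing cells and from 0.138 to 0.295 of that in dividing radial glia. The layer ratio of Slc1a2 ranged from 2.66 to 4.91. No paired analysis was possible because the data hold a single library. Without replicates, no difference was measured against spread between animals, and with under 100 UMIs in the class, Gja1 and S100b levels are limited by depth.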
